A study of Mus musculus with 28 samples.

Results

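The genes of the cytosolic ribosomal proteins were followed in 28 arrays of mouse fibroblasts. A gene was a member if at least 1 probe set of the array was annotated with its symbol alone and the symbol was Rpl or Rps with a number and an optional letter or l suffix, or Rplp0, Rplp1, Rplp2 or Rpsa. The Rps6k kinases, Rps19bp1 and symbols with -ps were not members. This gave 46 genes among 18193 genes measured in the same way: 22 of the large (60S) subunit, 20 of the small (40S) subunit and 4 paralogs with an l suffix. Where a gene had several probe sets, the one with the largest SD over the 28 arrays stood for it, here and for all 18193 genes. A further 29 ribosomal protein symbols, among them Rpl5, Rpl10 and Rplp1, were reached only by probe sets annotated with several genes, and Rps27a had no probe set with its symbol, so these have no gene value of their own.

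NIH3T3 is an immortalised mouse embryonic fibroblast line, and NIH3T3 K-ras is the derivative named for the K-ras oncogene; the labels do not give the allele or how the line was made. Each is 1 line, so a difference between them cannot be told apart from a difference between any 2 cultures kept separately. Both were kept in culture for 18 h before the medium was changed to 25 mM or 1 mM glucose, all with 4 mM glutamine and newborn calf serum. RNA was taken from each line at 0, 24, 48 and 72 h at 25 mM and at 24, 48 and 72 h at 1 mM, which makes 14 groups of 2 biological replicates. Every value below is a log2 ratio to the median of that probe set over the 28 arrays, so it carries no level: genes can be compared in how they differ between arrays but not in abundance. A log2 difference of 1 is a 2-fold change. In such bulk RNA, fewer cells of a type and less RNA per cell cannot be told apart.

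A ribosome is built in the nucleolus from ribosomal RNA and one copy of most ribosomal proteins, with the help of assembly factors that do not stay in the finished particle. The messages of ribosomal proteins begin with a cytosine followed by a run of pyrimidines, the 5' terminal oligopyrimidine (TOP) tract. Through it the kinase complex mTORC1 and the binding protein Larp1 control how much of the message is translated, and surplus ribosomal protein is degraded, so the message level is one of several layers at which the output is set. In growing fibroblasts these messages are among the most abundant in the cell.

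Listed RefSeq start sites of the members were searched for such a tract. The 15 bases before and the 15 bases from the annotated start are printed 5' to 3' on the gene's strand, with the longest run of C or T in capitals, for the 5 genes that passed a test in the comparisons below, for Rpl14, which had the third largest SD, and for Rpl7a and Rpl38, which were among the flattest.
Rps10 (chr17:27635230-27635259, minus strand): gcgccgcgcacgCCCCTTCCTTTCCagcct
Rps9 (chr7:3704026-3704055, plus strand): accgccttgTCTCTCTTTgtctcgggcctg
Rpsa (chr9:120127751-120127780, plus strand): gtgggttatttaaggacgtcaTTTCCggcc
Rpl12 (chr2:32961697-32961726, plus strand): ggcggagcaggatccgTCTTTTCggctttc
Rpl13a (chr7:45128731-45128760, minus strand): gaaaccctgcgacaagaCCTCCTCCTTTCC
Rpl14 (chr9:120571502-120571531, plus strand): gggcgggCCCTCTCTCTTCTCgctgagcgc
Rpl7a (chr2:26910792-26910821, plus strand): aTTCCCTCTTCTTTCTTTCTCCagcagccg
Rpl38 (chr11:114668565-114668594, plus strand): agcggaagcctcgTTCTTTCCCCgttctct
The coordinates are those of GRCm38.p6. A start site with its sequence was available for 40 of the 46 members, and it need not be the gene's outermost one. A run of at least 6 bases of C or T, read on the gene's strand, lay within this 30-base window, at 1 or more of a gene's listed start sites, in 26 of the 40 genes (65.0%), against 32.4% of 17492 protein-coding genes and 34.8% of 69 mitochondrial ribosomal protein genes. The same search for runs of A or G, which is the other strand's view of the same motif, found 5.0% of the members against 35.5% of all protein-coding genes. A run of at least 5 bases that began with C within 5 bases of the start was found in 47.5% of the members and 21.5% of all protein-coding genes. The run stood both in called genes such as Rps10 and in flat ones such as Rpl7a. Rpsa had the shortest of those printed (5 bases) and Rpl7a the longest (21 bases).

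Some arrays stood apart from their label or group. On Il33 and Krt14, which separate the lines in these data, 6 arrays lay with the line opposite to their label: both NIH3T3 arrays of 1 mM at 24 h, replicate 1 of NIH3T3 1 mM at 48 h, and replicate 1 of the K-ras line at 25 mM and 0 h, at 1 mM and 48 h and at 1 mM and 72 h. Several counts and called genes are also given without them below, and the members' median log2 fold changes for the K-ras line over time. The average glucose difference could not be fitted without them. Replicate 1 of the K-ras line at 25 mM and 72 h stood apart, with an interquartile range over all genes of 0.777 against 0.29 to 0.525 on the other arrays. The spiked hybridisation control bioC was low on 12 arrays, all labelled NIH3T3, among them all 8 NIH3T3 arrays at 25 mM and none of the K-ras line. Because levels were removed, the presence of fibroblast or other markers could not be read, only their changes.

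The values of the ribosomal protein genes varied little between arrays. How closely the signal of such abundant messages followed their amount was not tested, and with levels removed it cannot be read from these values. The median of the 46 genes on an array ran from -0.134 to 0.106, so the set as a whole was neither raised nor lowered by much on any array. The SD of a member over the 28 arrays had a median of 0.233, against 0.324 for all genes and 0.363 for 76 genes of the mitochondrial ribosome, and 30 of the 46 lay below the median of all genes. Over the 22 arrays other than the 6, these medians were 0.225, 0.329 and 0.376, and 29 members lay below that of all genes. All 28 values stayed within 1 log2 unit of the gene's median for 32 members and within 0.5 for 20, and 30 of the 1288 values (2.33%) lay beyond 1. The SD did not follow the subunit: its median was 0.22 for the large and 0.24 for the small subunit. Members with a single probe set had a median SD of 0.156. Where several probe sets existed, the one chosen had a median of 0.312 and the 54 others 0.166, so part of the spread of the chosen ones comes with the rule of taking the largest SD.

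**Figure D1:**
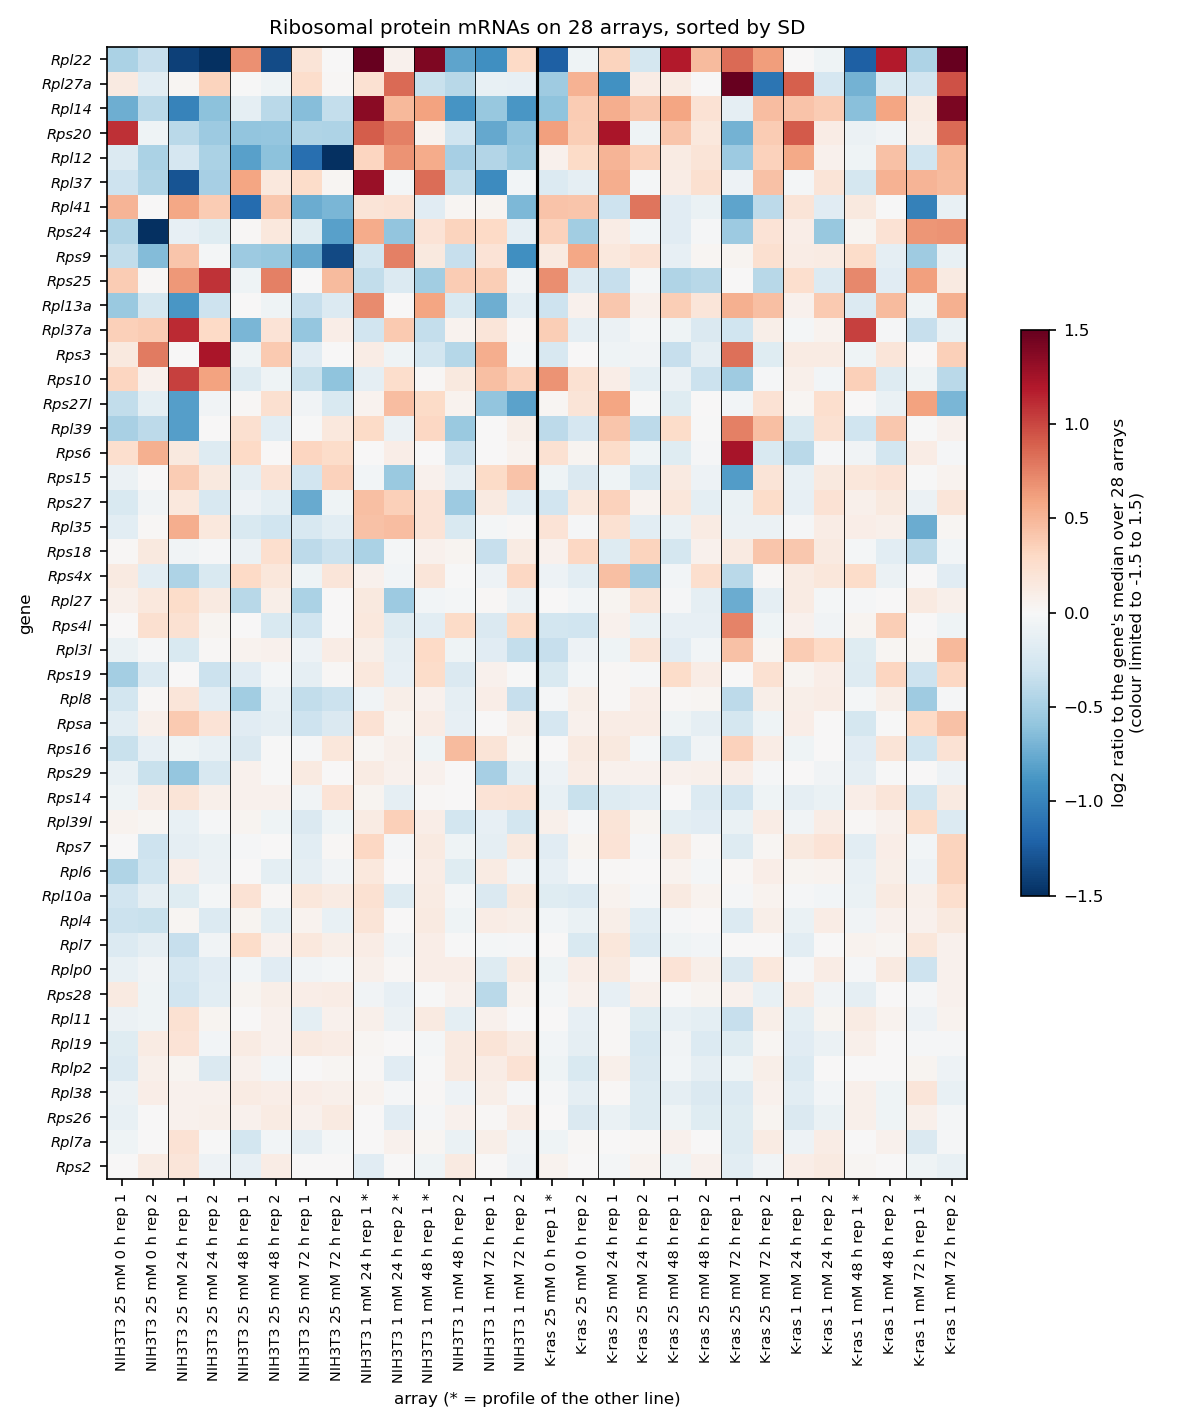
Log2 ratio to the gene's median (colour, limited to -1.5 to 1.5) of the 46 ribosomal protein genes, from the largest SD at the top to the smallest at the bottom, on the 28 arrays in columns; an asterisk marks the 6 arrays with the profile of the other line. Colour is dense in the top rows, from Rpl22 (SD 0.993) down, and almost absent in the bottom rows, ending with Rps2 (SD 0.091).

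The flattest member was Rps2, a 40S protein at the entry of the messenger channel, with an SD of 0.091 and values from -0.17 to 0.18. Next came Rpl7a (SD 0.105, from -0.27 to 0.22), Rpl38 (SD 0.111, from -0.22 to 0.18) and Rps26 (SD 0.111, from -0.22 to 0.13), the last a protein near the messenger exit site. The P stalk, which recruits elongation factors to the 60S subunit, was as even in the 2 of its genes that had a value. Rplp0 lay between -0.31 and 0.20 (SD 0.137) and Rplp2 between -0.23 and 0.22 (SD 0.119), and their changes over 72 h at 25 mM were 0.04 ± 0.17 and 0.07 ± 0.16 in NIH3T3 (log2 fold change ± standard error from limma, as below). Rpl11, which together with Rpl5 holds the Mdm2 ligase when ribosome assembly is disturbed, lay between -0.34 and 0.23 (SD 0.123). None of these genes passed the test in any of the 12 comparisons.

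At the other end 4 genes had the largest SD. Rpl22, which is dispensable for growth in most mouse tissues, had an SD of 0.993. Its 2 arrays of NIH3T3 at 25 mM and 24 h were at -1.40 and -1.78, those of NIH3T3 at 1 mM and 24 h at 2.05 and 0.06, and those of the K-ras line at 1 mM and 72 h at -0.46 and 1.88. Replicates of the last 2 groups thus lay about 2 log2 units apart, and no Rpl22 difference passed the test in any of the 12 comparisons. Its 2 other probe sets had SDs of 0.165 and 0.234 and correlated with it at -0.10 and -0.03 over the 28 arrays, so the swing belonged to 1 probe set.

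Rpl27a had an SD of 0.917, and 1 array made most of it. Replicate 1 of the K-ras line at 25 mM and 72 h, the array that stood apart, gave 4.10 and replicate 2 gave -1.10, the highest and the lowest value of the gene. The difference of this group from 0 h was 1.51 ± 0.99 and did not pass the test. The gene's other probe set ranged only from -0.34 to 0.46.

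Rpl14 (SD 0.66) and Rps20 (SD 0.594) were the third and the fourth. Rps20, a small-subunit protein of the head, stood at 1.10 and -0.07 in NIH3T3 at 25 mM and 0 h, at -0.40 and -0.54 at 24 h, at -0.59 and -0.58 at 48 h and at -0.45 and -0.46 at 72 h. The later arrays lay close together and below both arrays of 0 h. The difference of 72 h from 0 h was -0.97 ± 0.43 (limma adjusted p = 0.211), with the arrays of 0 h more than 1 log2 unit apart. A second Rps20 probe set followed the first (r = 0.84) and 2 others did so weakly (0.18 and 0.20), as a description over the same 28 arrays.

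The values that stood for the members did not move as one. The median correlation between 2 members over the 28 arrays was 0.04, against 0.33 between 2 mitochondrial ribosomal protein genes, and 0.04 against 0.35 without the 6 arrays. Between a chosen probe set and the 54 others of the same genes the median correlation was only 0.24, and 15 were below 0. How far the low correlation between members comes from the choice of probe set was not tested. Against the mean of the other 45 members, a member's correlation had a median of 0.22 and was below 0 for 15 genes. It was lowest for Rps25 (-0.57, and -0.46 without the 6 arrays), a small-subunit protein used in translation from internal entry sites, and for Rps26 (-0.41), Rps2 (-0.39) and Rpl19 (-0.34). For the last 3 the values stay within 0.24 of the median, so these correlations describe small differences. Replicate 1 of NIH3T3 at 25 mM and 24 h held the highest value of 9 members and the lowest of 7, so a single array set many of the extremes. The genes whose pattern was most like the mean of the members, by Pearson correlation over the 28 arrays, were Tmeff1 (0.94), Thyn1 (0.92) and Pvt1 (0.92). A likeness to this mean need not hold for a given member. Rpl14, with the third largest SD, followed the mean of the others at 0.83, against the median of 0.22. All these correlations share the arrays and their 6 out-of-place profiles.

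The first comparison asked how the messages changed while NIH3T3 grew at 25 mM glucose for 72 h. No ribosomal protein gene passed the test between 72 and 0 h (limma on all 28 arrays, 1 coefficient per group, Benjamini-Hochberg adjusted p under 0.05 over 18193 genes), where 5.52% of all genes did, 3.68% higher and 1.84% lower. At an unadjusted p under 0.05 there were 5 members, against 20.3% of all genes. The median log2 fold change of the 46 was 0.07, from -0.99 to 0.53, and the median size regardless of sign was 0.23, beside -0.068 and 0.29 for all genes. The 95% intervals of 33 members lay wholly within 1 log2 unit of no change. The arrays of the 2 groups did not overlap for 24 members, while the same held for 61.2% of all genes. Lowest were Rpl12 (-0.99 ± 0.34, adjusted p = 0.102), Rpl41 (-0.99 ± 0.42, adjusted p = 0.196) and Rps20. Rpl12 was called in a fit without the 6 arrays with the profile of the other line, at the same -0.99 (adjusted p = 0.0364). In that fit 1938 of 18193 genes were called. Of 9 fibroblast markers 1 was higher over the same time, and their median was 1.56; of 5 epithelial, 3 leukocyte and 2 endothelial markers 0 were called, and the part of any of these in the result was not tested.

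Of 24 assembly factors and ribosomal protein chaperones, 11 were lower and 0 higher over the same 72 h, and the list's median was -1.36. The other 13 did not pass, among them Sbds (0.01 ± 0.26) and Aamp (0.18 ± 0.23), and without the 6 arrays 15 were lower. The largest changes were in Grwd1, which escorts Rpl3 to the nucleolus (-2.92 ± 0.34, limma adjusted p = 0.000852), Nolc1, a nucleolar phosphoprotein (-2.69 ± 0.53, adjusted p = 0.0101), and Nop16 (-2.37 ± 0.48) and Rrp12 (-2.35 ± 0.49), both at adjusted p = 0.0116. The 95% intervals of 4 of these 24 genes lay within 1 log2 unit of no change, against 33 of the 46 ribosomal proteins. The same held for 27 of 76 mitochondrial ribosomal protein genes and for 10 of 16 elongation factors and other messages with a TOP tract. The mitochondrial ribosome, whose proteins are also nuclear encoded, had a median of -0.41 with 4 of 76 genes lower and 0 higher, led by Mrpl12 (-1.47 ± 0.42, adjusted p = 0.0486). Of the machinery that couples growth to ribosome production, 3 of 21 genes were lower, namely the RNA polymerase I subunit Polr1b (-1.5 ± 0.32), the mTORC1 subunit Mlst8 (-1.31 ± 0.28) and Larp1 (-0.85 ± 0.18). Its 1 higher gene was Tsc1 (1.06 ± 0.29), an inhibitor of the pathway upstream of mTORC1.

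The elongation factors and other messages with a TOP tract lay near the ribosomal proteins. Their median was 0.17 over 16 genes, with 1 lower, Nap1l1, a histone chaperone (-1.77 ± 0.48, adjusted p = 0.0418), and 0 higher. Eef1a1, which brings charged tRNA to the ribosome, was at 0.13 ± 0.14, Eef1b2 at 0.24 ± 0.16 and Eef2, the translocase, at 0.39 ± 0.24. Of the ribosomal proteins with other names, Fau, the 40S protein made as a fusion, was at 0.31 ± 0.24. The paralog Rpl7l1, which takes part in assembly, was at -1.11 ± 0.42 and did not pass the test (adjusted p = 0.138). Of the 7 host genes of small nucleolar RNAs 0 were called, with a median of -0.31; without the 6 arrays 2 were higher and 1 lower.

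**Figure D2:**
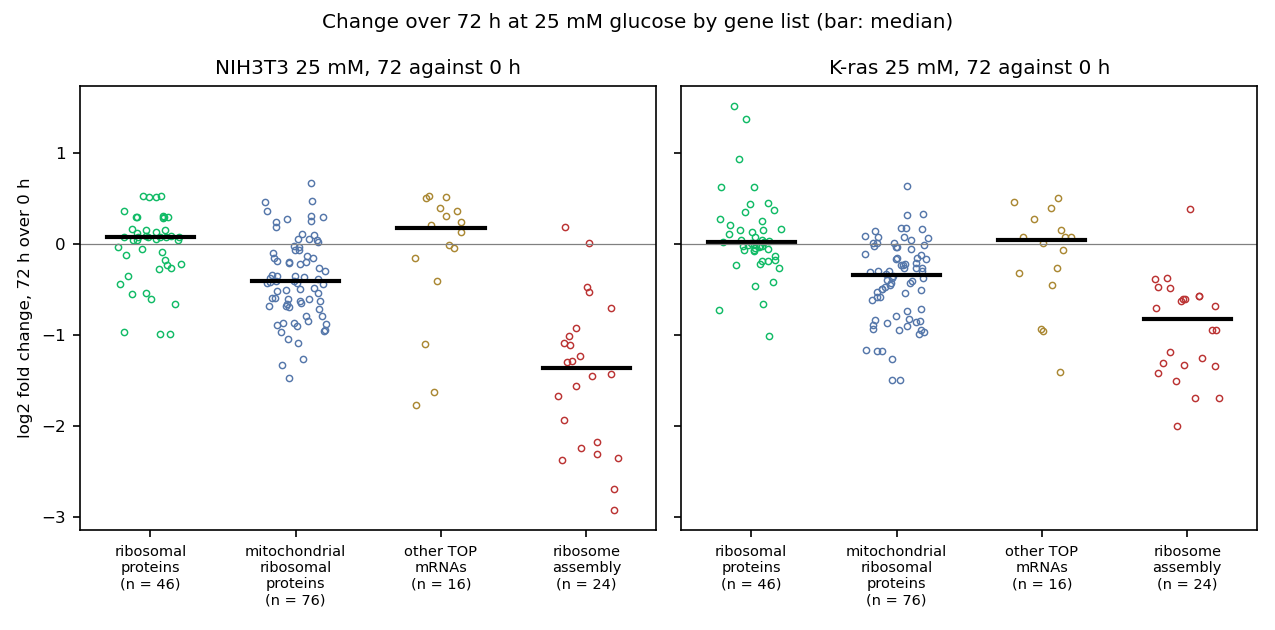
Log2 fold change of 72 over 0 h at 25 mM glucose (vertical axis) for each gene (circle) of 4 lists, in NIH3T3 on the left and the K-ras line on the right; the bar is the list's median. In NIH3T3 the ribosomal proteins centre at 0.07 and the assembly factors at -1.36, and in the K-ras line at 0.01 and -0.82.

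Between 24 and 0 h, the first day at 25 mM in NIH3T3, no member was called, where 0.0055% of all genes were, and the median was 0.10. At an unadjusted p under 0.05 there were 4 members against 4.55% of all genes, and the arrays did not overlap for 21 members against 34.4%. Between 72 and 24 h 3 of the 46 were called, all lower, where 6.15% of all genes were called in either direction, 4.06% higher and 2.08% lower. The share of members called, 3 of 46, was near that in either direction and above the 2.08% called lower. It rests on 3 genes, whose other probe sets did not show the same change, as given below. The arrays did not overlap for 25 members and 59.5% of all genes. The median of the 46 was -0.02 and the median size 0.31, beside 0.33 for all genes, and at an unadjusted p under 0.05 there were 9 members against 22.8% of all genes.

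Rps10, a protein of the 40S beak, had the clearest course. In NIH3T3 at 25 mM its arrays read 0.32 and 0.07 at 0 h, 1.03 and 0.60 at 24 h, -0.19 and -0.06 at 48 h and -0.33 and -0.60 at 72 h. Both arrays of 24 h were above all others of the series but 1, and both of 72 h were below those of 0 h. The difference of 72 from 24 h was -1.28 ± 0.24 (limma adjusted p = 0.0092). In the K-ras line the same gene read 0.10 and -0.15 at 24 h and -0.53 and -0.02 at 72 h, which overlap.

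Rps9, which sits in the body of the 40S subunit, read 0.42 and -0.03 at 24 h and -0.76 and -1.35 at 72 h. The groups did not overlap, and the difference was -1.25 ± 0.35 (limma adjusted p = 0.046). At 0 h it had stood at -0.37 and -0.65, so the 24 h arrays were the high ones and 72 h differed from 0 h by -0.54 ± 0.35 (adjusted p = 0.437). Rpsa, the 40S protein also known as the laminin receptor, read 0.39 and 0.20 at 24 h against -0.31 and -0.22 at 72 h, a difference of -0.56 ± 0.16 (adjusted p = 0.0453).

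The other probe sets of these genes did not show the same change. The 5 other Rps10 probe sets gave differences of 0.06 to 0.16, and the 2 other Rps9 probe sets gave 0.16 ± 0.22 and 0.30 ± 0.23, opposite in sign to the one tested. The second Rpsa probe set gave -0.19 ± 0.17. With the mean over all probe sets of a gene in place of the most variable one, 0 members were called and the differences were -0.13 (Rps10), -0.26 (Rps9) and -0.38 (Rpsa). The calls of Rps9 and Rpsa lay near the threshold. With quantile normalisation they were at -1.09 (adjusted p = 0.0868) and -0.46 (adjusted p = 0.117), and with the compared arrays alone Rpsa had an adjusted p of 0.108. Leaving out any 1 of the 4 arrays left 0 or 1 of the 3 calls; Rps10 kept its call without replicate 2 of 24 h, and the differences ranged from -1.49 to -1.07 for Rps10 and from -1.55 to -0.96 for Rps9. Ribosomal protein genes have many processed pseudogenes, and which transcripts each probe set detects was not tested.

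**Figure D3:**
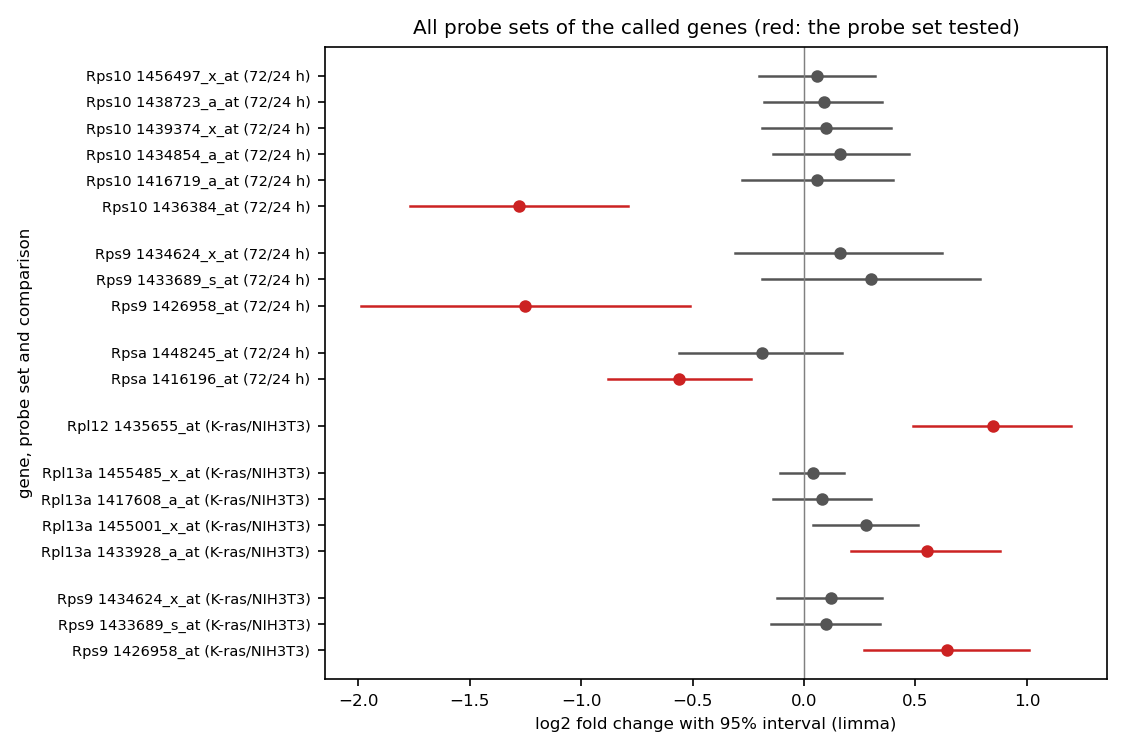
Log2 fold change with its 95% interval from limma (horizontal axis) for every probe set of the 5 called genes, in NIH3T3 at 72 against 24 h or the K-ras line against NIH3T3; red marks the probe set with the largest SD, which stood for the gene. The red Rps10 point lies at -1.28 and the gene's 5 other points between 0.06 and 0.16.

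In the K-ras line over the same hours, fewer genes of any kind passed. Between 72 and 0 h at 25 mM no member and 0 of 18193 genes were called, with 5 members and 15.3% of all genes at an unadjusted p under 0.05. The median of the members was 0.01 and their median size 0.17, beside 0.042 and 0.31 for all genes. Rpl39, a short protein of the exit tunnel, was at 0.93 ± 0.34 (adjusted p = 0.242) and Rpl41, the shortest of the set, at -1.01 ± 0.42 (adjusted p = 0.285). Between 72 and 24 h no member was called either (0% of all genes), 1 member had an unadjusted p under 0.05 against 10.2% of all genes, and the median was -0.03. The arrays did not overlap for 15 members against 0 h (40% of all genes) and for 8 against 24 h (36.2%). In a fit without replicate 2 of 72 h, the array that stands apart is alone in its group. The members' median was then -0.10 against 0 h and -0.14 against 24 h. Replicate 1 of 0 h has the profile of the other line; without the 6 arrays 0 members were called against either time, the medians were 0.01 and -0.03, and Rpl39 was at 0.85 ± 0.38 (adjusted p = 0.568).

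Rps6, the small-subunit protein phosphorylated by the S6 kinases, read 0.23 and 0.04 at 0 h and 1.24 and -0.23 at 72 h in the K-ras line. The 1.24 is its highest value of all 28 arrays and came from the array that stood apart. The difference, 0.37 ± 0.32, did not pass the test, and in NIH3T3 it was -0.09 ± 0.32. Rps3, a protein of the messenger entry that also takes part in DNA repair, likewise had 0.83 on that array and -0.18 on its replicate.

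The assembly factors of the K-ras line had a median of -0.82 over the 72 h with 0 of 24 called, Grwd1 at -0.95 ± 0.34 (adjusted p = 0.241) and Rrp12 at -2.00 ± 0.49 (adjusted p = 0.192). Without the 6 arrays the median was -0.97, with 0 called. The change of the 2 lines between 24 and 72 h was compared in 1 term. No member passed (0.0055% of all genes did), 4 had an unadjusted p under 0.05 against 14.6% of all genes, and the largest of these was Rps9 (1.2 ± 0.50, adjusted p = 0.299). The lines' courses were therefore not shown to differ for any ribosomal protein gene. The interval of that difference lay within 1 log2 unit for 24 of the 46, and for 13 of 76 mitochondrial ribosomal protein genes.

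The next question was whether the K-ras line differed from NIH3T3. At 25 mM and 72 h no member was called, where 0.726% of all genes were, and the median was 0.13. The arrays did not overlap for 18 members and 49.5% of all genes, and 4 members, all higher, had an unadjusted p under 0.05 against 21.6% of all genes. Averaged over 0, 24, 48 and 72 h, 3 of 46 were called, all higher in the K-ras line, where 11.3% of all genes were called and 5.67% were higher. The share of members was near that of higher genes. At an unadjusted p under 0.05 there were 11 members, 6 higher and 5 lower, against 24.7% of all genes. The median difference was 0.05 and the median size 0.16, beside 0.17 for all genes. The intervals of 40 members lay within 1 log2 unit, and so did those of 71 of 76 mitochondrial ribosomal protein genes. The arrays of the 2 lines overlapped for every one of the 46, and failed to overlap for 0.605% of all genes.

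Rpl12, which forms the base of the P stalk, had the largest difference. In NIH3T3 at 25 mM it read -0.20 and -0.47 at 0 h, -0.25 and -0.48 at 24 h, -0.81 and -0.61 at 48 h and -1.13 and -1.51 at 72 h. The K-ras line read 0.06 and 0.29, then 0.51 and 0.36, then 0.12 and 0.19, and at 72 h -0.54 and 0.35. Only the K-ras array that stood apart fell into the NIH3T3 range. The average difference was 0.85 ± 0.17 (limma adjusted p = 0.00647), and it kept its call in all 16 fits that left out 1 array, at 0.74 to 0.96. The gene has a single probe set, so no second one can be set beside it. In NIH3T3 its change from 0 to 72 h, -0.99 ± 0.34, is the trend that those arrays show and is the one named above.

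Rps9 differed by 0.64 ± 0.18 (limma adjusted p = 0.0271) and Rpl13a, the 60S protein also found free of the ribosome in interferon-treated cells, by 0.55 ± 0.16 (adjusted p = 0.0376). Rpl13a read -0.56 and -0.26 at 0 h and -0.35 and -0.21 at 72 h in NIH3T3, against -0.31 and 0.06 at 0 h and 0.53 and 0.45 at 72 h in the K-ras line. Their other probe sets gave smaller differences, all of the same sign: 0.12 ± 0.11 and 0.10 ± 0.12 for Rps9, and 0.04, 0.08 and 0.28 for Rpl13a. With the mean over all probe sets of a gene Rps9 was at 0.29 (adjusted p = 0.0279) and Rpl13a at 0.23 (adjusted p = 0.124), and with quantile normalisation Rpl13a had an adjusted p of 0.0535. Leaving out 1 array at a time left between 1 and 6 members called. Rpl13a kept its call in 3 of the 16 fits (0.48 to 0.62, adjusted p from 0.0329 to 0.11) and Rps9 in 9 (0.57 to 0.72, adjusted p from 0.0217 to 0.0858). Only Rpl12 was called without replicate 2 of NIH3T3 at 0 or 72 h, replicate 2 of the K-ras line at 0 or 48 h or its replicate 1 at 24 h. There were 5 without replicate 1 of the K-ras line at 0 h and 6 without its replicate 2 at 72 h.

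Just outside the threshold lay Rpl14 (0.77 ± 0.25, adjusted p = 0.0568), Rps14 (-0.24 ± 0.08, adjusted p = 0.0629) and Rps25 (-0.56 ± 0.19, adjusted p = 0.0738). Without the 6 arrays with the profile of the other line, 6 members were called: Rpl12 (0.88 ± 0.14), Rpl13a (0.59 ± 0.13), Rpl14 (0.89 ± 0.13), Rps9 (0.70 ± 0.17) and Rpl22 (0.95 ± 0.28) higher and Rps25 (-0.67 ± 0.16) lower in the K-ras line. In that fit Rpl14 had an adjusted p of 0.000286, the smallest of the 6.

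Several of these genes can also be set against the profile of an array within 1 label. Rpl12 lay between -1.51 and -0.20 on the 11 arrays labelled NIH3T3 that had that line's profile, and between 0.32 and 0.67 on the 3 that did not. Rpl14 lay between -1.0 and -0.13 on the first and between 0.49 and 1.35 on the second. Among the arrays labelled K-ras it lay between -0.13 and 1.41 on the 11 with that line's profile and between -0.63 and 0.12 on the 3 without, which overlap. Rps25 went the other way, with -0.07 to 1.08 on the 11 and -0.52 to -0.21 on the 3. In the K-ras line the 3 arrays with the other profile read 0.62 to 0.72 for Rps25, above all 11 others (-0.45 to 0.25). Rpl13a likewise separated there, with -0.31 to -0.06 on the 3 and 0.06 to 0.53 on the 11. For Rpl12 the 3 K-ras arrays (-0.30 to 0.06) lay inside the range of the 11 (-0.54 to 0.57), and for Rps9 the 3 (-0.53 to 0.28) overlapped the 11 (-0.13 to 0.58). The profiles were read from Il33 and Krt14, which are no members, and these ranges are a description with no test. The 3 NIH3T3 arrays are all at 1 mM and 24 or 48 h, while every NIH3T3 array at 25 mM is among the 11. Within that label, profile cannot be fully told apart from glucose and time.

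**Figure D4:**
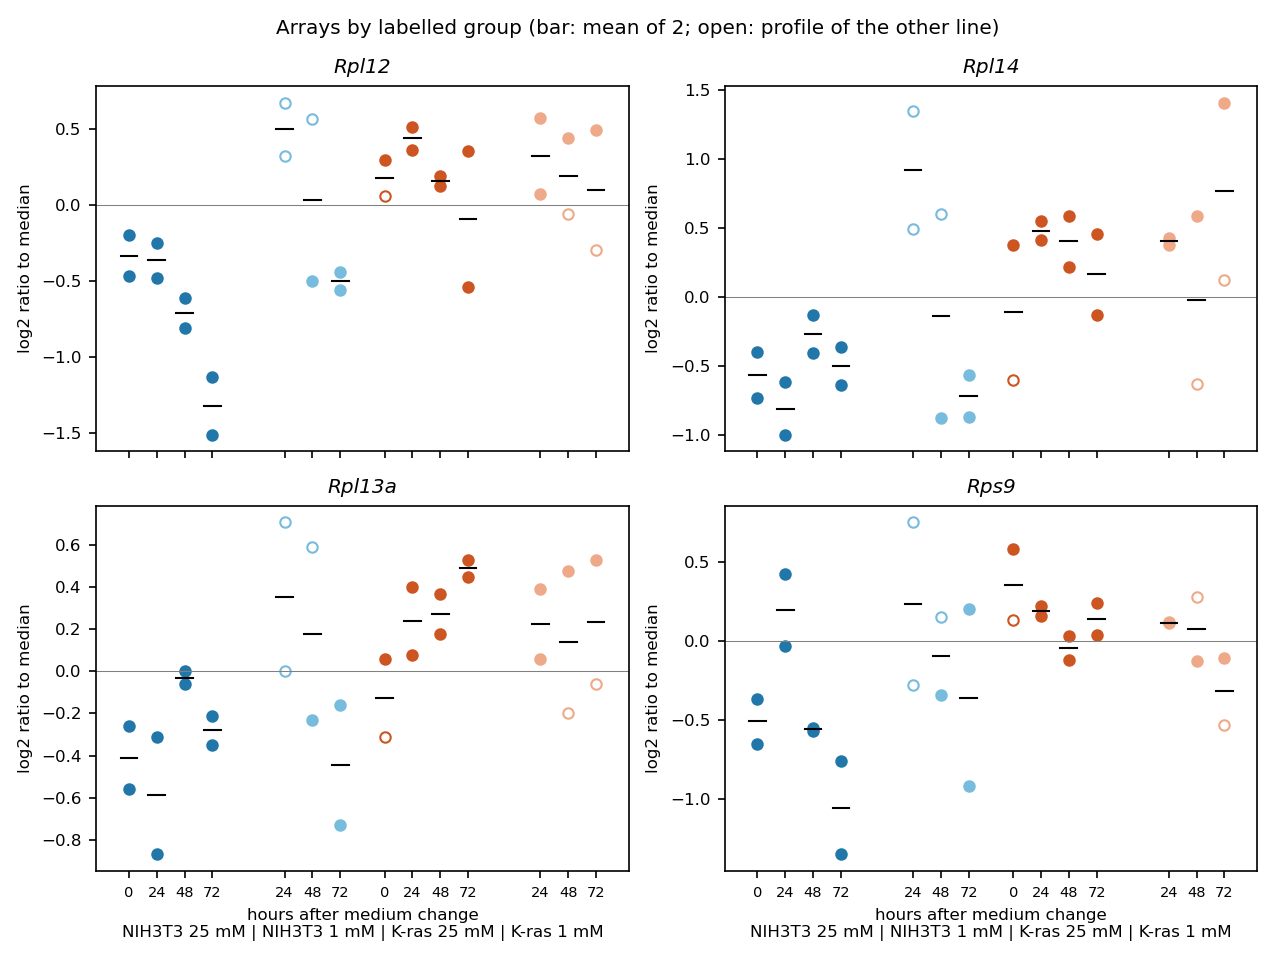
Log2 ratio to the gene's median (vertical axis, scaled per panel) of Rpl12, Rpl14, Rpl13a and Rps9 on each array by hours after the medium change, in NIH3T3 at 25 and 1 mM (blue) and the K-ras line at 25 and 1 mM (orange); the bar is the mean of 2 and open circles are the 6 arrays with the profile of the other line. The open NIH3T3 circles of Rpl12 and Rpl14 (0.32 to 0.67 and 0.49 to 1.35) lie above all filled NIH3T3 circles.

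The hybridisation control moved with the line as well. With the bioC split as a block 0 members were called, and 0 of all genes. Rpl12 was then at 0.26 ± 0.36 and Rpl13a at 0.42 ± 0.37, while Rpl14 (-0.12 ± 0.52) and Rps9 (-0.17 ± 0.34) changed sign. At 25 mM the 8 NIH3T3 arrays were all on the low side of the split and the 8 K-ras arrays all on the other, so line and bioC cannot be told apart there. The block was estimated from the NIH3T3 groups at 1 mM and 48 or 72 h, whose 2 arrays lay on opposite sides of the split. In the 48 h group those arrays also differ in line profile, so there the block holds a difference in profile as well. With the block and without the 6 arrays, where only the 72 h group informs it, Rpl12 was at 0.75 ± 0.42 (adjusted p = 0.415), Rpl13a at 1.16 ± 0.34 (adjusted p = 0.0833), Rpl14 at 0.59 ± 0.37 and Rps9 at -0.43 ± 0.34, with 0 members called. Of the cell type markers, 3 of 5 epithelial ones were lower in the K-ras line and 1 of 9 fibroblast ones was higher. Of 3 leukocyte markers 1 was higher and 1 lower. Over all genes 5.67% were higher and 5.67% lower. The epithelial list includes Krt14, which was picked from these data because it separates the lines, so it adds nothing independent. The part of these markers in the result was not tested.

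Outside the members, the paralog Rpl22l1, which can stand in for Rpl22, was higher in the K-ras line by 0.73 ± 0.19 (limma adjusted p = 0.0199), while Rpl22 itself differed by 0.80 ± 0.46 (adjusted p = 0.307) and its 2 other probe sets by -0.10 and -0.13. Of the 24 assembly factors 2 were lower and 0 higher on average, where 5.67% of all genes were lower, and the list's median was 0.05. The 2 were Heatr3 (-0.66 ± 0.18), which helps Rpl5 into the nucleus, and Nob1 (-0.50 ± 0.11), the nuclease that finishes the 40S ribosomal RNA. At 72 h alone Grwd1 was higher by 1.78 ± 0.34 (adjusted p = 0.0341).

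The remaining comparisons set 1 mM against 25 mM glucose. No ribosomal protein gene was called at 1 against 25 mM in NIH3T3 at 72 h (0.011% of all genes were), in the K-ras line at 24 h (0% of all genes) or in the K-ras line at 72 h (0.181%, of which 0.033% higher and 0.148% lower). Members with an unadjusted p under 0.05 numbered 3, 0 and 3, against 6.73%, 0.643% and 15.3% of all genes. Their medians were 0.06, -0.02 and 0.03, and the intervals of 33, 39 and 35 members lay within 1 log2 unit of no change. Among 76 mitochondrial ribosomal protein genes the same held for 44, 58 and 39. In the K-ras line at 24 h the median size of a difference was 0.07, beside 0.12 for all genes.

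Some members had larger values without passing. Rps10 in NIH3T3 at 72 h read 0.45 and 0.35 at 1 mM against -0.33 and -0.60 at 25 mM, a difference of 0.86 ± 0.24 (limma adjusted p = 0.415), while its 5 other probe sets gave -0.08 to 0.16. Rpl12 there read -0.44 and -0.56 against -1.13 and -1.51, a difference of 0.82 ± 0.34 (adjusted p = 0.678). In both genes the groups did not overlap, and the arrays of 1 mM lay nearer to those of 0 h. Non-overlap at this time held for 17 members and 41.4% of all genes. In the K-ras line at 72 h Rpsa read 0.30 and 0.44 at 1 mM against -0.26 and -0.07, a difference of 0.53 ± 0.16 (adjusted p = 0.143), and its second probe set gave 0.03. Without the 6 arrays only replicate 2 is left at 1 mM in that group, and the Rpsa difference was 0.60 ± 0.20. Rpl14 read 0.12 and 1.41 at 1 mM against -0.13 and 0.46 at 25 mM there, a difference of 0.60 on all arrays. The 1.41, its highest value of the 28, came from that replicate 2.

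Averaged over both lines and 24, 48 and 72 h, 0 members and 0% of all genes were called, with 1 member, Rpl12 (0.42 ± 0.14, adjusted p = 0.959), and 5.04% of all genes at an unadjusted p under 0.05. The difference was above 0 for 35 of the 46 members, 19 of 22 in the large subunit, 13 of 20 in the small one and 3 of the 4 paralogs. Their median was 0.05 and the median size 0.06, beside -0.001 and 0.08 for all genes. It was also above 0 for 21 of 24 assembly factors, 14 of 16 messages of the TOP list and 44 of 76 mitochondrial ribosomal protein genes. The out-of-place arrays in this comparison are all on the 1 mM side, and the members share the same arrays. The intervals of 44 members lay within 1 log2 unit, as did those of all 76 mitochondrial ribosomal protein genes and all 24 assembly factors. The 24 assembly factors had a median of 0.22 in this comparison, with 0 called. Both NIH3T3 arrays at 1 mM and 24 h had the other line's profile, so this average could not be fitted without the 6 arrays.

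The paralogs with an l suffix stand beside their parents as follows. Rps27l, a p53 target that differs from Rps27 at a few residues, had an SD of 0.364 and values from -0.83 to 0.60, and Rps27 an SD of 0.27 and values from -0.76 to 0.45. Over 72 h in NIH3T3 at 25 mM they were at 0.12 ± 0.33 and -0.28 ± 0.27. Rpl39l, the paralog of Rpl39 known from male germ cells, ranged from -0.28 to 0.36, against -0.83 to 0.76 for Rpl39. Rpl3l, the form of striated muscle, ranged from -0.36 to 0.49; its parent Rpl3 had no probe set of its own. Rps4l ranged from -0.30 to 0.74, the upper end from the K-ras array that stood apart, and its relative Rps4x from -0.53 to 0.45. None of these 7 genes passed the test in any of the 12 comparisons. With levels removed, a paralog's evenness does not show that its message was present.

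Ribosomal protein symbols were also present on probe sets shared with other genes. The 110 probe sets whose annotation joins a ribosomal protein symbol with other genes had a median of 0.15 over 72 h in NIH3T3 at 25 mM, from -1.44 to 0.67, and of 0.05 in the K-ras line, from -0.85 to 1.26. Their median size of 0.23 in NIH3T3 was that of the 46 members as well. Between the lines, averaged over time, the median was 0.05, and the intervals of all 110 lay within 1 log2 unit. Each of these values mixes transcripts of several genes.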

How the data were processed

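RNA of 28 cultures was hybridised to Affymetrix mouse genome arrays. RMA was used per the submitters' processing notes, with no version or further step named there. The deposited values are log2 ratios. On each of 45101 probe sets the ratio's median over the 28 arrays was 1 within 0.001, so the level of a probe set is lost and depth or signal over background cannot be given. Of the probe sets, 34945 were annotated with 1 symbol, 932 with several, 9160 with none and 64 were controls, from the platform annotation that GEO holds. All 46 members matched RefSeq by Entrez number; start sites and coordinates are RefSeq's, GRCm38.p6.

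Tests used limma 3.58.1 (R 4.3.3) on all 28 arrays with 1 coefficient per group, eBayes, and Benjamini-Hochberg adjustment over 18193 genes in each of 12 comparisons; the fitting was tested on simulated data. With 2 arrays a group their number limits the precision. Intervals are 95%.

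The members, lists and alternatives were chosen with earlier results of these data known. Named were called members, the genes with the 4 largest and 4 smallest SDs and the 4 lowest correlations with the other members, the P stalk, Rps6, Rps3, Rpsa, Rpl11, Rpl22, Rps4x, Rpl39, paralogs with their parents, and up to 4 called genes of each other list; further genes were named after their values were seen. The profile of an array was read from Il33 and Krt14, a pair taken from earlier results of these data. Alternatives were quantile normalisation, the mean over probe sets, an SD filter, the 6 out-of-place arrays left out, a replicate block, the bioC split as a block, only the compared arrays, and each array left out; spreads, lists and the bioC block without the 6 arrays were added after seeing the data.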

Additional observations from a re-analysis of the deposited data

How the results depend on the processing

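The limits are 2 arrays a group, values without level, and 6 arrays with the profile of the other line. Labels share replicate numbers, but the numbers did not pair arrays: across 91 pairs of groups the correlation of the replicate differences ran from -0.68 to 0.69 with a median of -0.04. With the replicate block the count of members called in NIH3T3 between 72 and 24 h was 1 in place of 3: Rps9 (adjusted p = 0.0556) and Rpsa (adjusted p = 0.0532) lost their calls at the same differences of -1.25 and -0.56. The block changed no other count, which in the average line difference stayed at 3.

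Counts of members called changed by more than 1.5 times as follows. For NIH3T3 72 against 24 h they were 1 (Rps10) with quantile normalisation, 0 with the mean over probe sets and 6 with only the compared arrays. Those compared arrays alone gave 4 for 72 against 0 h. Without the 6 arrays 1 member was called for NIH3T3 72 against 0 h, beside 1938 of all genes. For the line difference at 72 h there were 2 (Rpl12 and Rps9), beside 1618, and for its average 6, beside 3249. The count for 1 against 25 mM in the K-ras line at 72 h changed too, but only replicate 2 is then left at 1 mM. The bioC block gave 0 for the average line difference, with Rpl14 at -0.12 and Rps9 at -0.17, both of opposite sign. The same block without the 6 arrays, added after seeing the data, also gave 0, with Rps9 at -0.43 and Rpl14 at 0.59. The cause was not tested. Smaller shifts, to 2 or 4 in place of 3, came for NIH3T3 72 against 24 h with the SD filter (2) and without the 6 arrays (4), and for the average line difference with quantile normalisation (2), the SD filter (4) and only the compared arrays (4). The glucose average could not be fitted without the 6 arrays.

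The median of the members moved by more than the spread between replicates (0.067) as follows. Restricting the genes to an SD at or above the median, which leaves 16 members, gave -0.20 (72 against 24 h in NIH3T3), 0.37 and 0.29 (line at 72 h and average), -0.05 (glucose in NIH3T3) and 0.25 (difference in time course). Quantile normalisation gave -0.02 for glucose in NIH3T3 and -0.04 for the difference in time course. The mean over probe sets gave 0.05 for the line at 72 h, and the bioC block gave -0.01 there and -0.08 for the average. The cause was not tested.

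With each array left out in turn, counts ranged from 0 to 1 (NIH3T3 72 against 24 h), 0 to 4 and 0 to 3 (K-ras line 72 against 0 and 24 h), 0 to 4 (line at 72 h), 1 to 6 (line average), 0 to 5 (glucose in the K-ras line at 72 h) and 0 to 1 (difference in time course). For the comparisons that use the K-ras line at 25 mM and 72 h, the highest counts came without replicate 2 of that group. That fit leaves the array that stands apart alone in its group, and against 0 and 24 h more of all genes passed there too. The medians ranged from -0.06 to 0.09 (NIH3T3 72 against 0 h), 0 to 0.13 (24 against 0 h), -0.10 to 0.14 and -0.14 to 0.05 (K-ras line 72 against 0 and 24 h), -0.05 to 0.14 (line at 72 h), -0.03 to 0.15, -0.08 to 0.06 and -0.04 to 0.12 (glucose in NIH3T3 at 72 h and in the K-ras line at 24 and 72 h) and -0.09 to 0.11 (difference in time course). Over all genes, the 1118 called in NIH3T3 between 72 and 24 h became 412 with quantile normalisation, 1913 without the 6 arrays and 3554 with only the compared arrays, and the 1004 between 72 and 0 h became 1938 and 4909 under the last 2.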
